A study of Mus musculus with 9 samples.

Results

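The Hox cluster genes are the 39 protein-coding genes of the mouse Hoxa, Hoxb, Hoxc and Hoxd clusters, which lie on chromosomes 6, 11, 15 and 2 and hold 11, 10, 9 and 9 genes, of 21951 protein-coding genes in the annotation. RNA-seq values were given as FPKM (fragments per kilobase of transcript and per 1000000 fragments) for 54914 assembled loci in 9 libraries, 3 each of SSC, SSCiPSC and fiPSC, and 54913 loci were used. A locus was assigned to a Hox gene by its position in the GRCm38 build and not by its printed name: it had to cover at least 50% of the gene or lie at least 50% inside it. This gave 56 loci on the strand of the gene or without a strand, and 5 loci on the opposite strand. Of the 39 genes, 27 had a locus that holds coding bases, in 23 distinct loci because neighbouring genes were assembled together, and 12 had none (Hoxa4, Hoxb7, Hoxb8, Hoxc4, Hoxc5, Hoxc6, Hoxc9, Hoxc10, Hoxc11, Hoxc12, Hoxc13 and Hoxd12). For those 12 genes no level is given.

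All groups came from mice with the same pair of alleles: Gt(ROSA)26Sortm1(rtTA*M2)Jae, which makes the doxycycline-dependent activator from the broadly active Rosa26 locus, and Col1a1tm3(tetO-Pou5f1,-Sox2,-Klf4,-Myc)Jae, whose 4 reprogramming factors that activator switches on. SSC were testis cells of pups at postnatal day 6, sorted with magnetic beads for the surface protein Gfra1 and not passaged (passage 0). SSCiPSC were induced pluripotent stem cells made from SSC, and fiPSC were the same kind of cells made from fetal fibroblasts. Both were grown with LIF and, per the labels, with doxycycline to passages 10 to 11, whereas the methods of the study describe a later passage after doxycycline had been withdrawn. The lines were clonal, from picked colonies, and were sorted for SSEA1 to remove feeder cells. The study calls its libraries biological samples, but neither the labels nor its methods say whether the 3 libraries of a group came from separate animals or cultures. If they did not, the p-values measure the spread between these libraries only. The fetal fibroblasts themselves were not sequenced in these libraries, so no comparison of fiPSC with their own starting cells was made.

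Hox genes encode transcription factors that bind DNA through a homeodomain, usually together with TALE cofactors of the Pbx and Meis families, and give the body axis its regional identity. Within a cluster the genes are transcribed in one direction and are switched on in order of position, from the anterior, low-numbered end to the posterior, high-numbered end. In pluripotent cells the clusters are known to be held silent by Polycomb complexes, while somatic cells of the trunk keep the Hox genes of their position switched on.

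The part of each gene that encodes the DNA-binding domain is shown for Hoxd8 and Hoxb6, the genes with the highest SSC levels in the Hoxd cluster and, outside the Hoxb9 interval, in the Hoxb cluster among coding loci. Each had a coding locus, not shared with another Hox gene, that held the whole homeobox and was lower in both kinds of iPSC than in SSC (values below). The sequences are those of the GENCODE vM21 coding sequence on GRCm38, and the capitals mark the 18 bases that encode the core of the recognition helix, which contacts DNA.
Hoxd8 homeobox, chr2:74706525-74706704, plus strand: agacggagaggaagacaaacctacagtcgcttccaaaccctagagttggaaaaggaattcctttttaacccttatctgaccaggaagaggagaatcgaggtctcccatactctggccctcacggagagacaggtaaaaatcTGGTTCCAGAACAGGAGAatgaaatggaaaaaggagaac
Hoxb6 homeobox, chr11:96300689-96300868, plus strand: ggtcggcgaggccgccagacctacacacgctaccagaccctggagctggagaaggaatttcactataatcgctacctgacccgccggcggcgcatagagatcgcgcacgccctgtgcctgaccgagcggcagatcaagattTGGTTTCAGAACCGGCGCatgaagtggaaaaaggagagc
The 180-base homeoboxes of Hoxd8 and Hoxb6 were identical at 71.1% of positions, and their longest shared run was 13 bases. Over all 39 homeoboxes the median identity was 80.6% within a paralogue group (42 pairs) and 60.6% in the other 699 pairs, and the longest shared run was 52 bases (Hoxa6 and Hoxb4). Of the 27 genes with a coding locus, 24 had the whole homeobox in it, and Hoxa3, Hoxb13 and Hoxc8 did not.

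Hox clusters also hold microRNA genes, and their mature sequences are shown for the pair that lies inside loci described here. The capitals mark the seed, bases 2 to 8, by which a microRNA recognises its targets, and the sequences are from RefSeq on GRCm38.p6.
mmu-miR-10b-5p, chr2:74726074-74726096, plus strand, inside the Hoxd4 coding locus: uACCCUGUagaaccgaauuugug
mmu-miR-196a-5p, chr11:96265187-96265208, plus strand, inside the Hoxb9 locus: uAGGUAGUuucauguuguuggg
The FPKM values of these loci measure the long transcripts of the interval and not the mature microRNAs, which were not measured.

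SSC libraries were shallower than iPSC libraries. In units of 1000000, the fragments behind each library, estimated from the spacing of its smallest values, were 1.75, 4.57 and 1.37 in SSC replicates 1, 2 and 3 and between 13.1 and 17.4 in the 6 iPSC libraries. One fragment on 1 kb was therefore worth 0.572, 0.219 and 0.731 FPKM in SSC and from 0.0575 to 0.0764 FPKM in iPSC. A value of 0 in SSC excludes less than a value of 0 in iPSC, and the Hox loci sit in this low range. The labels fitted the leading markers: Gfra1 was at 37.7, 34.1 and 23.9 FPKM in SSC and at most 0.171 in iPSC, and Nanog, a pluripotency factor, was listed at 0 in all 3 SSC libraries and lay between 270.2 and 483 FPKM in iPSC. All 12 pluripotency genes with a locus rose in both kinds of iPSC, where 26.2% of all loci tested were called higher in SSCiPSC and 28% in fiPSC. SSC libraries also held markers of other testis cells, given below with the Hox values, and in such bulk samples fewer cells of a type and less RNA per cell cannot be told apart.

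Outside the Hoxb9 interval, the coding loci of Hox genes were low in SSC and mostly close to 0 in both kinds of iPSC. The 22 coding loci other than that of Hoxb9 summed to 20.3, 19.7 and 28.9 FPKM in SSC, 1.46, 1.54 and 1.54 FPKM in SSCiPSC, and 1.07, 2.60 and 1.58 FPKM in fiPSC. The central genes of the Hoxd cluster and the genes of the Hoxb cluster carried nearly all of the SSC sum, and the coding loci of the Hoxa and Hoxc clusters stayed at or under 1.27 FPKM in every library. In 8 of these 22 loci every SSC library was above every iPSC library, and in 2 every SSC library was below them, where over all 54913 loci the shares were 20.4% and 24.2%. Summed values of loci are described here without a test.

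**Figure D1:**
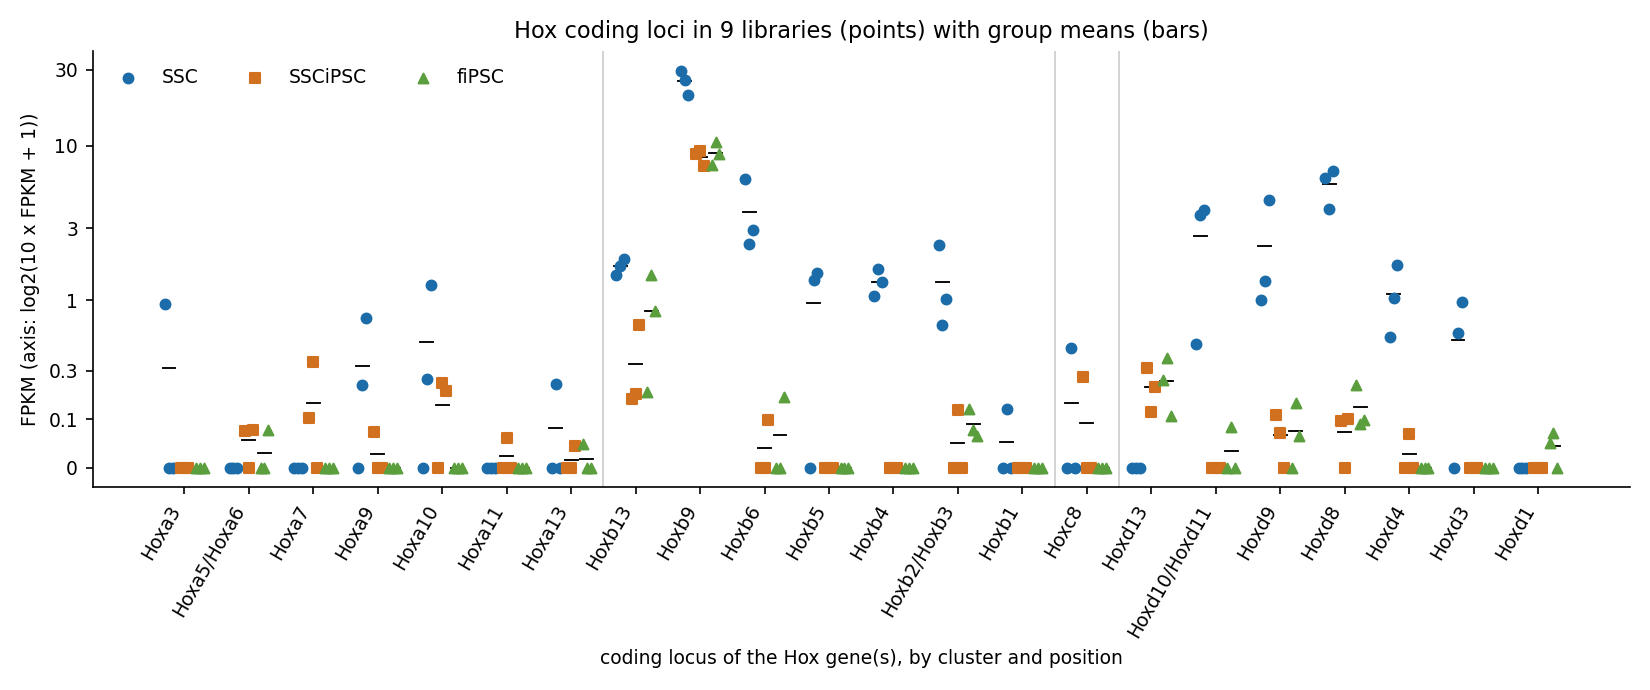
FPKM of 22 coding loci of Hox genes (x axis, by cluster and position, with grey lines between Hoxa, Hoxb, Hoxc and Hoxd) in each of 9 libraries, on an axis of log2(10 x FPKM + 1) with FPKM at the ticks. Points are libraries and short bars group means of 3, and SSC stand above the iPSC at Hoxb9, Hoxb6, Hoxb4, Hoxd8 and Hoxd9, whereas Hoxa and Hoxc loci stay at or under 1.27 FPKM.

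In the Hoxd cluster the highest level was that of Hoxd8, a gene of the middle of the cluster. Its locus (chr2:74704671-74707935, plus strand) was at 6.29, 3.97 and 6.93 FPKM in SSC, 0.0962, 0 and 0.1004 FPKM in SSCiPSC, and 0.229, 0.0863 and 0.0987 FPKM in fiPSC. Each SSC library lay far above each iPSC library. All differences below are on the log2(FPKM + 1) scale, on which a low gene shows less than its true fold. Hoxd8 fell by 2.63 (SE 0.27, adjusted p = 0.00046, limma) in SSCiPSC and by 2.54 (SE 0.25, adjusted p = 0.00044) in fiPSC. Like the other Hox loci called lower outside the Hoxb9 interval, Hoxd8 reached 1 FPKM only in the SSC libraries of the comparison, and so passed the filter (1 FPKM in at least 3 of the 6 libraries) through the group in which it was high. In a fit of all loci without that filter its adjusted p was 0.00102 in SSCiPSC and 0.000879 in fiPSC by limma, and those of the others called in each comparison lay between 0.00163 and 0.0291 and between 0.00197 and 0.0288, where 37.7% and 40.6% of all loci were called.

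Its neighbour Hoxd9 (chr2:74698583-74700205, plus strand, 48.2% of the coding bases), a gene known for its part in limb and lumbar patterning, was at 1.01, 1.35 and 4.53 FPKM in SSC. It was at 0.113, 0.0648 and 0 FPKM in SSCiPSC and 0, 0.152 and 0.0580 FPKM in fiPSC. The groups did not overlap, but SSC replicate 3 stood well above the other SSC libraries. The difference was -1.49 (SE 0.39, adjusted p = 0.019, limma) in SSCiPSC and -1.47 (SE 0.39, adjusted p = 0.020) in fiPSC, and the call was lost when any 1 of the iPSC libraries of the comparison was left out (adjusted p up to 0.081 and 0.084). It rested on at least 2, 7 and 7 fragments in the SSC libraries. Another piece with 30.5% of the coding bases (chr2:74697814-74698365, no strand) was at 0, 1.10 and 1.84 FPKM in SSC, listed at 0 in SSCiPSC and at 0.379, 0.143 and 0 FPKM in fiPSC. There the groups overlapped, and the piece did not pass the filter.

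The loci on both sides of Hoxd8 and Hoxd9 showed the same order of groups. The locus shared by Hoxd10 and Hoxd11 (chr2:74683856-74694474, plus strand), which holds all coding bases of Hoxd10 and 23.1% of those of Hoxd11, was at 0.489, 3.63 and 3.95 FPKM in SSC, listed at 0 in all SSCiPSC libraries and at 0, 0.0777 and 0 FPKM in fiPSC. It did not pass the filter of 1 FPKM in 3 libraries and was not tested. A short piece at the 3′ end of Hoxd10 (chr2:74694603-74695096, no strand) was at 1.68, 3.86 and 2.16 FPKM in SSC and listed at 0 in all 6 iPSC libraries, and was called lower in both (adjusted p = 0.0017 and 0.0015). These values stood for 1, 6 and 1 fragments.

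Towards the anterior end, a plus-strand locus upstream of the Hoxd4 coding sequence, inside the spans of both Hoxd3 and Hoxd4 (chr2:74711886-74725518), was at 3.83, 1.66 and 4.19 FPKM in SSC and at most 0.0351 FPKM in iPSC. It fell by 1.99 (SE 0.30, adjusted p = 0.0020, limma) in SSCiPSC and by 2.02 (SE 0.29, adjusted p = 0.0017) in fiPSC. It holds no coding base of either gene. The coding locus of Hoxd4 (chr2:74725840-74728705), which also holds the gene of the miR-10b sequence shown above, was at 0.550, 1.04 and 1.73 FPKM in SSC, with 1 iPSC library above 0, at 0.0628 FPKM. Hoxd3 had 0, 0.587 and 0.981 FPKM in SSC and was listed at 0 in all iPSC libraries, and the plus-strand locus of Hoxd1, the most anterior gene of the cluster, did not exceed 0.0639 FPKM in any library. Loci without a strand that share its ends and hold its coding bases reached 0.559 FPKM in SSC replicate 1, 0.274 FPKM in SSC replicate 2 and at most 0.160 FPKM in iPSC. Neither Hoxd4, Hoxd3 nor Hoxd1 passed the filter, and Hoxd3 and Hoxd1 were described after their values were seen.

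Hoxd13, the most posterior gene of the cluster, ran the other way, and was also chosen after its values were seen. Its coding locus (chr2:74668716-74670276, plus strand, 60.1% of the coding bases) was listed at 0 in all 3 SSC libraries, at 0.318, 0.121 and 0.219 FPKM in SSCiPSC and at 0.252, 0.379 and 0.109 FPKM in fiPSC. A piece at its 3′ end (chr2:74670335-74671561) was also at 0 in SSC, at 0.0616 to 0.136 FPKM in SSCiPSC and at 0.182 to 0.530 FPKM in fiPSC. At both loci every iPSC library exceeded every SSC library. At the mean level of both kinds of iPSC together, the 3 SSC libraries would hold at least 1.05 fragments of the coding locus and 1.81 of the 3′ piece. The part of depth in these differences was not tested. The 3′ piece passed the test for fiPSC when low values were not filtered (difference 0.40, adjusted p = 0.044, limma). In that fit 40.6% of 54586 loci were called and 23.2% called higher.

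In the Hoxb cluster, Hoxb6 (chr11:96298901-96301499, plus strand, all coding bases) was at 6.14, 2.38 and 2.94 FPKM in SSC. It was at 0, 0 and 0.0969 FPKM in SSCiPSC and 0, 0 and 0.176 FPKM in fiPSC. In the smallest whole solution these stood for 1 and 2 fragments in all, against 19 in SSC. Every SSC library lay above every iPSC library. Hoxb6 fell by 2.15 (SE 0.32, adjusted p = 0.0019, limma) in SSCiPSC and by 2.11 (SE 0.32, adjusted p = 0.0021) in fiPSC.

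Hoxb4, a regulator best known from blood stem cells, had a coding locus (chr11:96319053-96320547, plus strand, 62.3% of the coding bases) at 1.07, 1.62 and 1.33 FPKM in SSC and listed at 0 in all 6 iPSC libraries. The SSC values stood for at least 1, 4 and 1 fragments, the smallest whole solution. On that solution 1 fragment would have been worth 0.108 to 0.144 FPKM in an iPSC library, and less if the transcript is longer. Its 3′ piece (chr11:96320684-96321422, no strand) was at 1.95, 4.10 and 4.98 FPKM in SSC, listed at 0 in SSCiPSC, and at 0.129, 0.0971 and 0.223 FPKM in fiPSC. Both loci were called lower in both kinds of iPSC, the coding locus by 1.22 on the log2(FPKM + 1) scale in each (SE 0.16 and 0.14, adjusted p = 0.0011 and 0.00070, limma) and the piece by 2.16 and 1.96 (adjusted p = 0.0015 and 0.0023).

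Other Hoxb loci were low in SSC and at or near 0 in iPSC. The locus shared by Hoxb2 and Hoxb3 (chr11:96345631-96354817, plus strand) was at 2.32, 0.670 and 1.02 FPKM in SSC and did not exceed 0.130 FPKM in iPSC. Hoxb5 was at 0, 1.37 and 1.52 FPKM in SSC and listed at 0 in all iPSC libraries, and Hoxb1, the most anterior gene, was above 0 in SSC replicate 2 only, at 0.133 FPKM. None of these 3 loci passed the filter. A 371-base piece in the 3′ part of Hoxb7 (chr11:96289682-96290052, no strand), which holds no coding base, was at 7.96, 5.08 and 3.40 FPKM in SSC and above 0 in 1 iPSC library, fiPSC replicate 1, at 0.348 FPKM. It was called lower in SSCiPSC (-2.64, SE 0.31, adjusted p = 0.00075, limma) and fiPSC (-2.49, SE 0.32, adjusted p = 0.0011). Hoxb5, Hoxb1 and the Hoxb7 piece were described after their values were seen.

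Hoxb13 is a posterior gene set apart from the rest of its cluster and known from the prostate and tail. The piece that holds 52.8% of its coding bases and not the homeobox (chr11:96194357-96194895, no strand) was at 1.49, 1.70 and 1.90 FPKM in SSC, 0.165, 0.188 and 0.677 FPKM in SSCiPSC, and 0.196, 1.47 and 0.851 FPKM in fiPSC. Every SSC library lay above every iPSC library, but the lowest SSC value (1.485 FPKM) was close to the highest of fiPSC (1.474 FPKM). The piece was lower in SSCiPSC (-1.02, SE 0.22, adjusted p = 0.0084, limma), a call lost without SSCiPSC replicate 1 (adjusted p = 0.055) or replicate 2 (adjusted p = 0.051), and was not called in fiPSC (-0.61, SE 0.30, adjusted p = 0.13). These FPKM values stood for 5 fragments in the 3 SSC libraries, 6 in SSCiPSC and 16 in fiPSC, so the level in SSC rests on fewer fragments than that in iPSC.

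**Figure D2:**
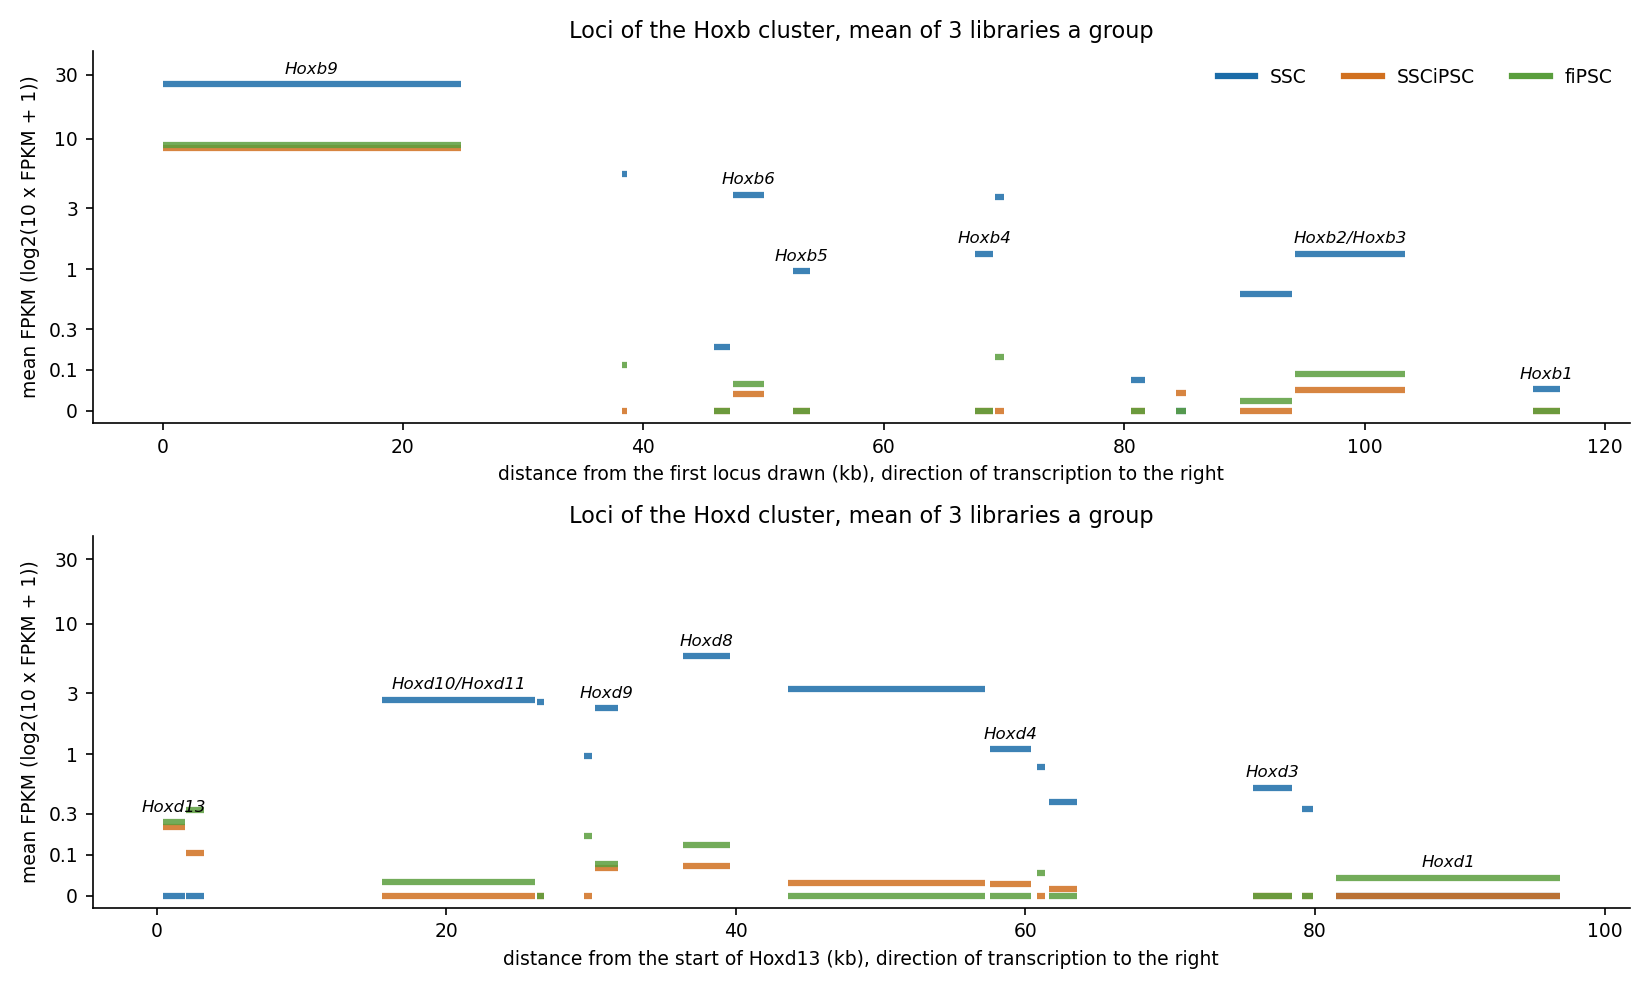
Mean FPKM of 3 libraries a group for the loci of the Hoxb cluster (above, Hoxb13 left out) and the Hoxd cluster (below), each drawn as a line over its length, on an axis of log2(10 x FPKM + 1) with FPKM at the ticks, against distance in kb. Loci without a strand that share their ends with another locus, such as 8 of the Hoxb9 interval, are not drawn. Apart from 1 short piece of Hoxb3, the SSC lines drawn lie above both iPSC lines from Hoxb9 to Hoxb2/Hoxb3 and from Hoxd10/Hoxd11 to Hoxd3, and at Hoxd13 the iPSC lines lie above SSC at 0.

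The Hoxb9 interval kept several FPKM in iPSC, where no other Hox coding locus exceeded 1.47 FPKM in a library. It spans chr11:96251448-96276270, contains the lincRNA gene Gm53 and the microRNA gene Mir196a-1 besides Hoxb9, and appears in the table as 9 loci with the same ends, so its values cannot be assigned to Hoxb9 or to Gm53. Its plus-strand locus was at 29.7, 25.8 and 20.9 FPKM in SSC, 8.88, 9.26 and 7.43 FPKM in SSCiPSC, and 7.54, 10.6 and 8.88 FPKM in fiPSC. SSC lay above both iPSC groups, which overlapped each other. The group means differed 2.99-fold (SSCiPSC) and 2.83-fold (fiPSC), with adjusted p = 0.0011 and 0.0013 by limma.

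Of the other 8 loci of the interval, which have no strand, 1 was called. It was at 9.42, 16.8 and 8.05 FPKM in SSC, 0.348, 1.16 and 0.345 FPKM in SSCiPSC, and 1.23, 1.54 and 0.720 FPKM in fiPSC (-2.91, SE 0.37, adjusted p = 0.00098, and -2.48, SE 0.33, adjusted p = 0.0013, limma). The remaining 7 had group means between 0.598 and 3.08 FPKM, and none was called in any comparison in which it was tested.

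The Hoxa cluster held no locus that passed the filter. Its highest value was that of Hoxa10, known for its role in the reproductive tract, at 0, 0.256 and 1.27 FPKM in SSC, 0, 0.238 and 0.198 FPKM in SSCiPSC and 0 in all fiPSC libraries. The locus shared by Hoxa5 and Hoxa6 (chr6:52201150-52215548, minus strand) was listed at 0 in SSC and did not exceed 0.0725 FPKM in iPSC. The coding loci of Hoxa3, Hoxa7, Hoxa9, Hoxa11 and Hoxa13 stayed at or under 0.950 FPKM in every library. Summed over the 15 loci of the cluster, the values were 1.26, 1.41 and 2.91 FPKM in SSC, from 0.470 to 1.02 FPKM in SSCiPSC and from 0.220 to 0.542 FPKM in fiPSC.

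The Hoxc cluster held 2 loci in all. Hoxc8 was above 0 in 1 SSC library (0.459 FPKM) and 1 SSCiPSC library (0.268 FPKM). A piece at the 3′ end of Hoxc13 (chr15:102928525-102928989, no strand), chosen after its values were seen, was at 0, 0.705 and 0 FPKM in SSC, 2.05, 1.16 and 0.208 FPKM in SSCiPSC, and 0.243, 0.182 and 0 FPKM in fiPSC. The SSCiPSC values stood for 10, 5 and 1 fragments and overlapped those of both other groups.

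Ordered by their mean in SSC, the coding loci were the plus-strand locus of the Hoxb9 interval (25.5 ± 4.40 FPKM, SD, n = 3), Hoxd8 (5.73 ± 1.56), Hoxb6 (3.82 ± 2.03), Hoxd10 and Hoxd11 (2.69 ± 1.91), Hoxd9 (2.30 ± 1.94), Hoxb13 (1.70 ± 0.208), Hoxb4 (1.34 ± 0.276), Hoxb2 and Hoxb3 (1.34 ± 0.870) and Hoxd4 (1.11 ± 0.593). The value of the first cannot be assigned to Hoxb9 or to Gm53. Among neighbours in this order, the locus of the Hoxb9 interval and Hoxd8 did not overlap in their 3 SSC libraries, and every other pair did.

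Counted over the 56 Hox loci, 17 passed the filter for SSCiPSC against SSC (13 of the Hoxb and 4 of the Hoxd cluster), and 11 of them were called, all lower in SSCiPSC, where 50.3% of the 36544 loci tested in all were called and 24.1% were called lower. For fiPSC against SSC, 16 passed (12 Hoxb and 4 Hoxd), and 10 were called, all lower, where 51.8% of 38007 loci were called and 23.7% were called lower. In the first comparison 9 and in the second 8 of the loci that passed had all their iPSC libraries under 1 FPKM. These passed through SSC alone and had to differ, so the counts describe the loci and say nothing of how many Hox genes changed. The rest were 8 loci of the Hoxb9 interval for SSCiPSC, and 7 of the interval and the Hoxb13 piece for fiPSC, with 2 of the interval called in each. Without the filter, 15 of 53 Hox loci were called in SSCiPSC, all lower, where 37.7% of all loci were called and 17.1% called lower, and 15 of 52 in fiPSC, 14 of them lower, where 17.4% of all loci were called lower. Both comparisons use the same 3 SSC libraries.

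**Figure D3:**
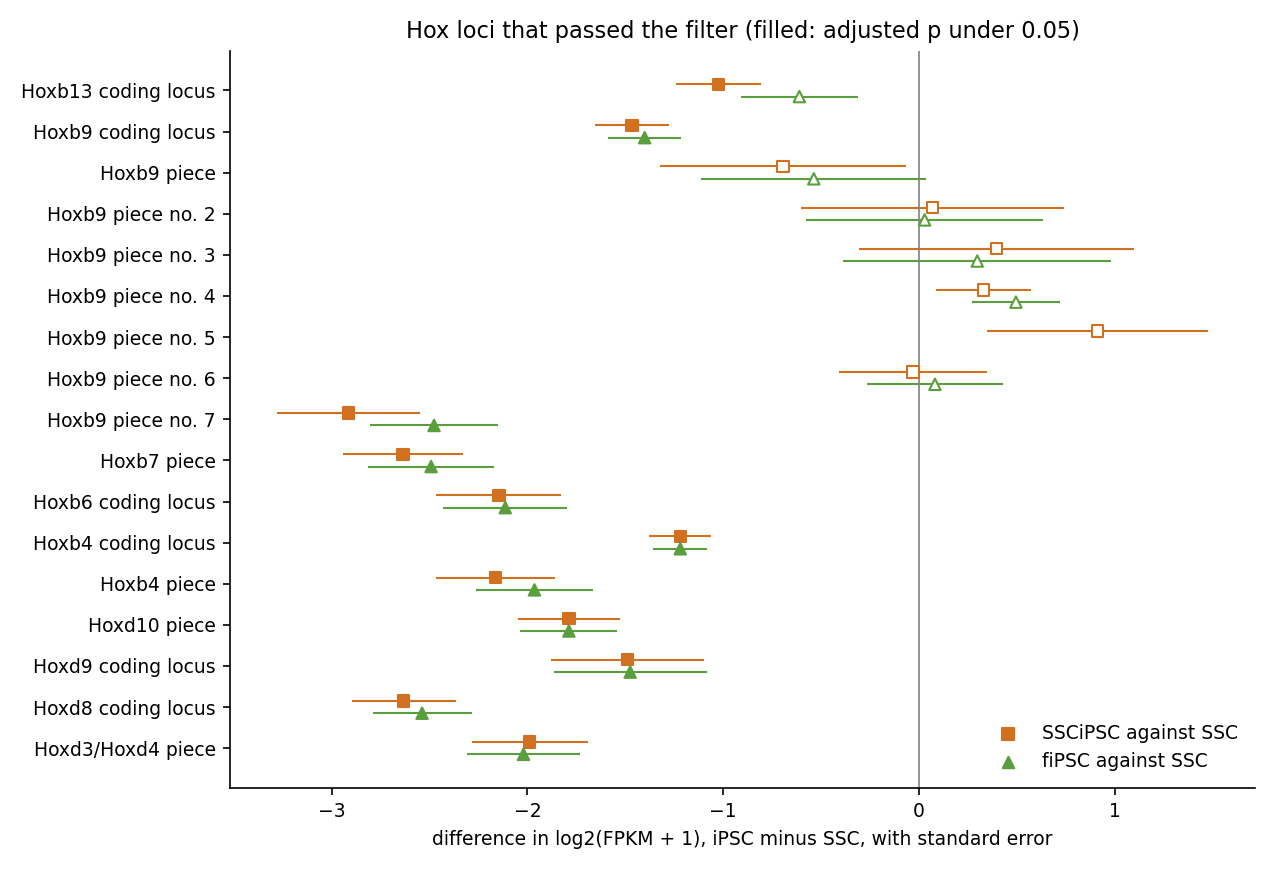
Difference in log2(FPKM + 1), iPSC minus SSC, with its standard error (x axis) for each Hox locus that passed the filter (y axis), from limma fits of 6 libraries each. Filled symbols have an adjusted p under 0.05: 11 loci for SSCiPSC (squares) and 10 for fiPSC (triangles) are filled, and all of these lie below 0.

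SSCiPSC and fiPSC were also compared, since they differ in their cell of origin. No Hox locus was called. This cannot decide whether the cell of origin left a difference in Hox RNA, since almost no locus of any kind was called. The 8 loci that passed the filter were all of the Hoxb9 interval, 0 of them had an adjusted p under 0.05 and 0 an unadjusted p under 0.05 by limma, where 0.0678% of 33948 loci were called. The plus-strand Hoxb9 locus differed by 0.06 (SE 0.17, adjusted p = 0.92). Without a filter 43 Hox loci were tested, and 0 were called (0.032% of all loci). Outside the interval the Hoxb loci summed to 0.165, 0.422 and 0.773 FPKM in SSCiPSC and 0.803, 1.64 and 1.36 FPKM in fiPSC, and the Hoxd loci to 0.876, 0.384 and 0.565 FPKM and 1.18, 1.57 and 0.448 FPKM. For Hoxb each fiPSC library was above each SSCiPSC library, and for Hoxd they overlapped. Without the Hoxb13 piece the Hoxb groups overlapped as well, at 0, 0.234 and 0.0969 FPKM in SSCiPSC and 0.607, 0.169 and 0.507 FPKM in fiPSC. With 3 libraries a group an exact permutation test of a single value cannot give a two-sided p below 0.1.

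Of 23 long noncoding RNAs listed for the clusters, 15 had a locus, and 8, such as Hotair and Hottip, had none. Some of these loci were shared with Hox genes and are described with them, such as that of Gm53 with Hoxb9 and that of Gm28309 with Hoxd10. Of the loci not shared, that of Halr1, a lincRNA next to the anterior end of the Hoxa cluster (chr6:52102910-52114193, plus strand), stood apart and was chosen after its values were seen, and the others stayed at or under 1.80 FPKM in every library. Halr1 was at 0, 0.328 and 0 FPKM in SSC, 51.7, 123 and 60.6 FPKM in SSCiPSC, and 52.8, 45.9 and 47.03 FPKM in fiPSC, and rose by 6.07 (SE 0.36, adjusted p = 9.8e-05, limma) and 5.49 (SE 0.19). On the strand opposite Hoxb2, the locus that overlaps Hoxb3os was at 0.195, 1.80 and 0.644 FPKM in SSC and at most 0.106 FPKM in iPSC.

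Protein-coding genes that flank the clusters rose or were not called. Of 12 listed, 11 had a locus and 10 were tested: 7 rose, 0 fell and 3 were not called in SSCiPSC, and the counts were the same in fiPSC. Of all loci tested, 26.2% were called higher in SSCiPSC and 28% in fiPSC. The median difference was 1.35 and 1.18, where the median of all loci tested was 0.11 and 0.17. Calcoco2, an autophagy receptor beyond the posterior end of Hoxb, was listed at 0 in all SSC libraries and at 6.64 to 23.5 FPKM in iPSC. Cbx5, which encodes a heterochromatin protein beside Hoxc, was at 22.4, 28.5 and 35.1 FPKM in SSC and 119 to 135 FPKM in iPSC. Skap2 beside Hoxa rose from 3.87, 5.76 and 5.43 FPKM in SSC to between 12.95 and 21.98 FPKM in iPSC, and Lnpk beside Hoxd from 3.46, 4.85 and 3.51 to between 11.5 and 16.1 FPKM. Evx1, a homeobox gene at the posterior end of Hoxa named after its values were seen, did not exceed 0.0937 FPKM in any library.

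**Figure D4:**
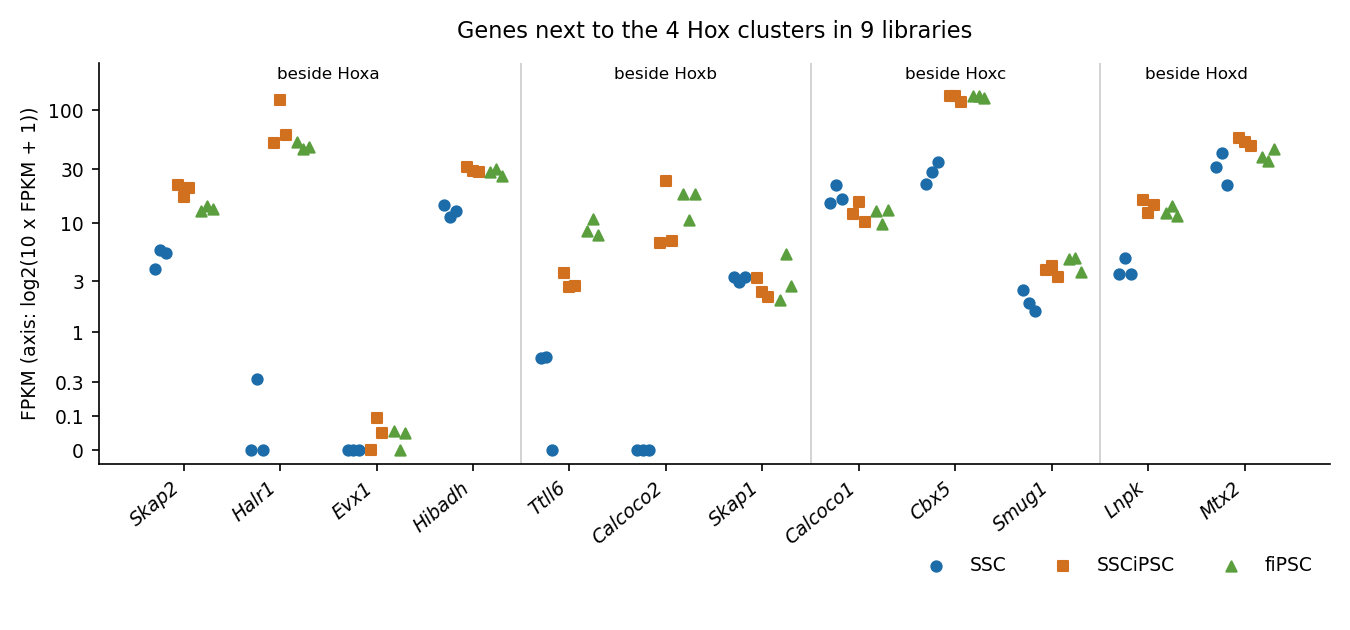
FPKM of genes next to the 4 Hox clusters (x axis, grouped by cluster) in each of 9 libraries, on an axis of log2(10 x FPKM + 1) with FPKM at the ticks. Points are libraries: Halr1 and Calcoco2 are at or near 0 in SSC and above 6 FPKM in all iPSC libraries, and Evx1 is near 0 throughout.

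The regulators of Hox clusters were described from lists. Among 13 Polycomb genes, all tested, 8 rose, 3 fell and 2 were not called in both comparisons, with a median difference of 1.33 in SSCiPSC and 1.31 in fiPSC. Over all loci tested, 26.2% were higher and 24.1% lower in SSCiPSC, and 28% higher and 23.7% lower in fiPSC, with a median difference of 0.11 and 0.17. The loci of the Polycomb genes Ring1 and Bmi1 also hold other genes. Ezh2, the methyltransferase that writes the silencing mark on histone H3, was at 7.85, 9.27 and 6.38 FPKM in SSC and 47.1 to 70.5 FPKM in iPSC. Its partner Eed was at 35.1, 42.1 and 30.7 FPKM in SSC and 85.6 to 188 FPKM in iPSC. Cbx7 and Cbx8, alternative readers of that mark, went opposite ways: Cbx7 rose by 2.55 (adjusted p = 0.00040, limma) and 2.51, from at most 8.72 FPKM in SSC to at least 37.1 FPKM in iPSC, and Cbx8 fell by 3.01 (adjusted p = 0.00038) in SSCiPSC and fell by 2.88 in fiPSC, from 8.47, 14.6 and 12.3 FPKM to at most 0.921 FPKM. Pcgf2, a subunit of the other Polycomb complex, rose by 1.86 and 1.76.

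Of 8 trithorax genes and H3K27 demethylases, which oppose Polycomb silencing, 4 rose, 3 fell and 1 was not called in both comparisons (median difference 0.31 and 0.27). The same shares and medians over all loci were 26.2% higher and 24.1% lower in SSCiPSC (median 0.11) and 28% higher and 23.7% lower in fiPSC (median 0.17). Those with the largest changes were Kdm6b, a demethylase, at 24.9, 19.1 and 21.6 FPKM in SSC and 1.85 to 3.51 FPKM in iPSC, Kmt2a, the methyltransferase that maintains Hox expression, at 23.4, 21.6 and 21.1 FPKM in SSC and 5.01 to 8.18 FPKM in iPSC, and the complex subunits Ash2l and Rbbp5, which rose by 1.996 and 1.54 in SSCiPSC and by 2.07 and 1.26 in fiPSC.

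Of 13 genes that act upstream of Hox clusters, 12 had a locus and 6 were tested, and 2 rose, 2 fell and 2 were not called in each comparison (median difference 0.28 in SSCiPSC and -0.01 in fiPSC). With 26.2% higher and 24.1% lower over all loci in SSCiPSC, and 28% and 23.7% in fiPSC, these counts are near the background. The loci of Gdf11 and Cyp26a1 also hold other genes. Egr2, an activator of Hox genes in the hindbrain, was at 40.2, 24.1 and 21.7 FPKM in SSC and 0.786 to 1.30 FPKM in iPSC. Cyp26b1, which degrades retinoic acid, was at 5.91, 5.28 and 9.56 FPKM in SSC and at most 0.363 FPKM in iPSC. Rarg, a retinoic acid receptor, was at 5.28, 8.48 and 2.90 FPKM in SSC and 19.4 to 55.9 FPKM in iPSC, and Rara rose by 0.61 and 0.47.

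All 9 TALE cofactors had a locus and 7 were tested: in SSCiPSC 0 rose, 1 fell and 6 were not called, and in fiPSC 1 rose, 1 fell and 5 were not called (median difference -0.38 and -0.17). Over all loci tested, 50.3% and 51.8% were called in either direction. Meis1 was the one that fell, from 2.24, 1.79 and 3.37 FPKM in SSC to at most 0.389 FPKM in iPSC (-1.46, SE 0.24, adjusted p = 0.0029, and -1.56, SE 0.21, adjusted p = 0.0015, limma). Pbx4 was higher in fiPSC (5.07, 5.98 and 4.96 FPKM) than in SSC (0.530, 3.41 and 1.90 FPKM; difference 1.23, adjusted p = 0.045), and its difference between fiPSC and SSCiPSC was not called (1.47, adjusted p = 0.11). The locus of Pbx2, which also holds Gpsm3 and had the highest values of the list, was at 20.8 to 37.4 FPKM in SSC and 19.8 to 25.5 FPKM in iPSC. None of the genes of these lists was called between fiPSC and SSCiPSC.

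SSC libraries carried the markers of testis somatic cells as well as those of germ cells. The 12 Sertoli genes summed to 1572, 1613 and 1335 FPKM in SSC, led by Clu, and 11 of them fell and 1 rose in each kind of iPSC, where 24.1% and 23.7% of all loci tested fell. In iPSC the list summed to between 185 and 317 FPKM, led by Rhox5, which pluripotent cells also express, and Cst12, Fshr and Defb19 were listed at 0 in all 6 libraries. The 8 Leydig genes summed to 536, 397 and 901 FPKM in SSC, led by Star, and to 39.4 to 50.9 FPKM in iPSC, where Lhcgr and Nr5a1 were listed at 0, and all 8 fell. The locus of Star also holds Lsm1 and that of Insl3 also holds Jak3, and these were at 23.4 to 28.3 and 13.1 to 22.3 FPKM in iPSC, nearly all of the sum there. Of the 7 peritubular myoid genes 6 had a locus, which summed to 131, 117 and 95.0 FPKM in SSC, led by Acta2, and to 19.7 to 25.0 FPKM in iPSC, and 3 fell in SSCiPSC and 4 in fiPSC. Of the 13 genes of interstitial fibroblasts or feeder cells 12 had a locus, which summed to 110, 102 and 318 FPKM in SSC, led by Col3a1, and to 11.4 to 45.6 FPKM in iPSC, where Tcf21 was listed at 0. Of these, 10 were tested, and 7 fell in each comparison.

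The SSC libraries differed among themselves in the mast cell, macrophage and blood lists. The 6 mast cell genes summed to 115, 441 and 1226 FPKM in SSC replicates 1, 2 and 3, led by Tpsab1, and to at most 0.284 FPKM in iPSC, where Tpsab1, Tpsb2 and Mcpt4 were listed at 0, and all 6 fell. The macrophage list (7 of 8 genes with a locus, led by Lyz2) summed to 77.2, 25.6 and 262 FPKM in SSC and 11.0 to 26.1 FPKM in iPSC, and 6 fell in SSCiPSC and 4 in fiPSC. The blood list (5 of 6 genes with a locus, led by Hbb-bs) summed to 2117, 511 and 4485 FPKM in SSC and at most 4.90 FPKM in iPSC, and 2 of the 3 tested fell in each. SSC replicate 3, the highest in all 3 lists and in the fibroblast and Leydig lists, also had the highest value in the 5 Hoxd coding loci that were above 0 in SSC. That replicate was the shallowest library. Its lead was small at Hoxd8 (6.93 against 6.29 FPKM in replicate 1) and at Hoxd10 and Hoxd11 (3.95 against 3.63 FPKM in replicate 2). At Hoxd9 it was large (4.53 against 1.35 FPKM in replicate 2). Of the 7 Hoxb coding loci, 3 were highest in SSC replicate 1 (Hoxb9, Hoxb6, and Hoxb2 and Hoxb3), 2 in replicate 2 (Hoxb4 and Hoxb1) and 2 in replicate 3 (Hoxb13 and Hoxb5). The 3′ pieces did not all follow, since that of Hoxd10 was highest in replicate 2 and that of Hoxb4 in replicate 3. The summed Hoxd loci were at 15.7, 18.0 and 28.9 FPKM and the summed Hoxb loci outside the Hoxb9 interval at 21.4, 19.5 and 17.7 FPKM. The 14 germ line genes, led by Dazl in SSC, summed to 804, 986 and 670 FPKM in SSC and 357 to 666 FPKM in iPSC, and 9 of them fell in each comparison, while 4 rose in SSCiPSC and 5 in fiPSC. The 6 endothelial genes, led by Pecam1, summed to 56.8 to 117 FPKM in SSC and 83.4 to 127 FPKM in iPSC, where Emcn was listed at 0, and 4 fell and 1 rose in each. Beside the counts of these lists, 24.1% of all loci tested fell and 26.2% rose in SSCiPSC, and 23.7% fell and 28% rose in fiPSC, so the germ line genes that rose were near the background share. The part of each of these cell types in the Hox values was not tested.

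**Figure D5:**
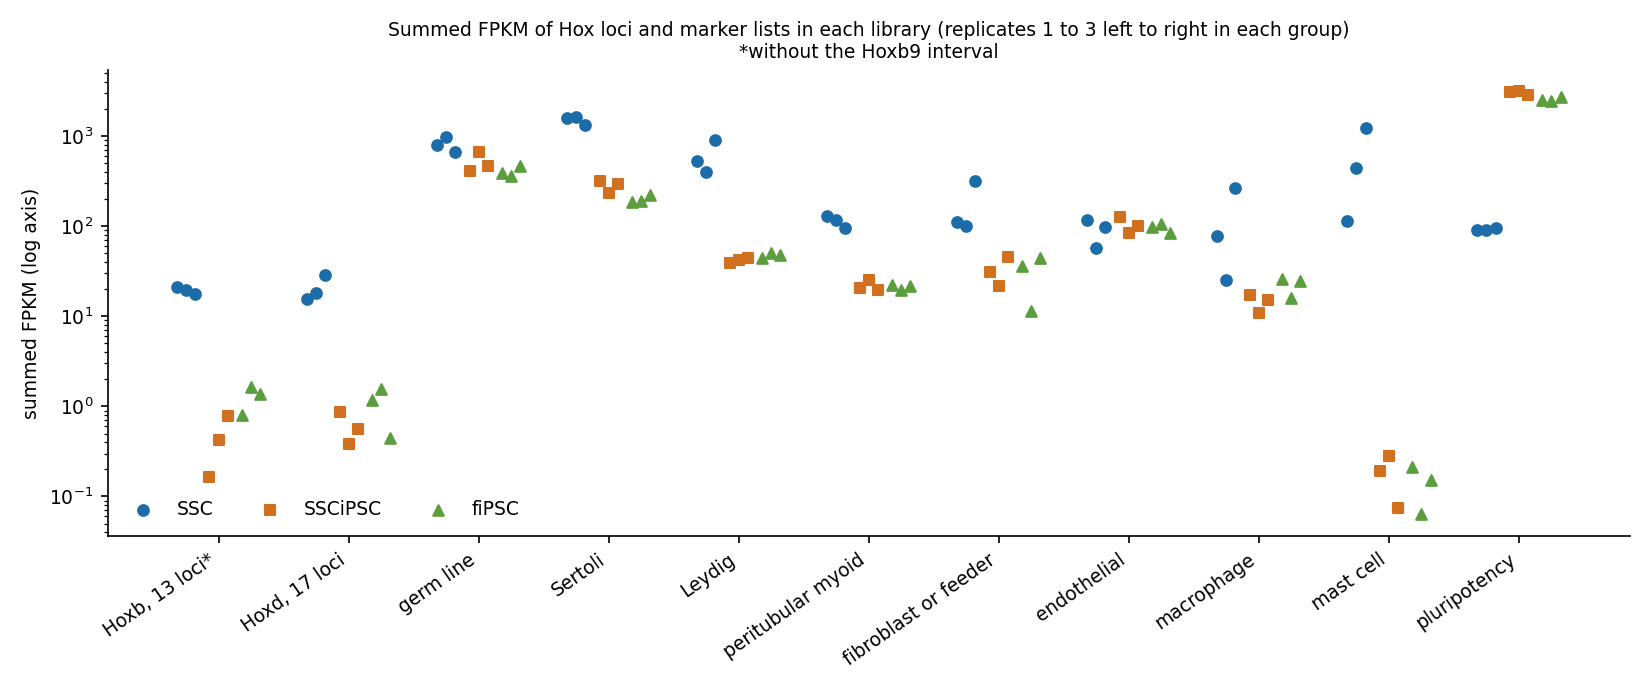
Summed FPKM (log axis) of the Hoxb loci without the Hoxb9 interval, the Hoxd loci and the marker lists in each library, with replicates 1 to 3 from left to right in each group. The Hoxb and Hoxd sums lie at 15.7 to 28.9 FPKM in SSC and at most 1.64 FPKM in iPSC, and the sums of Sertoli, Leydig and mast cell markers are also lower in all 6 iPSC libraries than in SSC.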

How the data were processed

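RNA of 9 libraries was measured, and the values analysed are those the authors deposited as FPKM, 1 per locus and library. Per the labels' processing notes the authors used Trimmomatic 0.32, TopHat2 2.0.9 with Bowtie2 2.1.0, Cufflinks 2.2.1 and Cuffdiff. The annotation and any scaling between libraries are not given in the sources used here. The labels name both a kit that depletes ribosomal RNA and a stranded mRNA kit. The notes name the build mm9, but 92.8% of the loci with a strand overlapped a coding gene of the same strand in GRCm38, against 38.3% and 37.9% after a shift of 1000000 bp up or down, so loci were placed on GRCm38 (GENCODE vM21). A further deposited file holds only numbers of features in the authors' cummeRbund object and was not used. No locus was taken by its printed name, and 1 locus with a blank value was left out. The values of 1 coding locus are not reported here. Strand came from the order of the table, which lists plus, minus and unstranded loci of a chromosome in turn.

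For each pair of groups, log2(FPKM + 1) was fitted by limma 3.58.1 (R 4.3.3, eBayes with a trend) over all loci that reached 1 FPKM in 3 or more of the 6 libraries. P-values were adjusted over all of these by the Benjamini-Hochberg method, with a threshold of 0.05. FPKM values are not counts, so no count model was used, and the test does not know how many fragments a value stands for. Fragment totals were estimated from the steps of the lowest values of loci from 600 to 6000 bp long, and fragments of a Hox locus were recovered with a tolerance of 0.12 of a fragment, as the smallest whole solution for spliced loci. The fit was tested on simulated data, and no result of that test is used here. Python 3.11.15 with numpy 2.4.6 and pandas 2.3.3 was used for the tables and matplotlib 3.10.9 for the plots.

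The Hox genes, the gene lists and the tests were chosen with earlier results of these data known. Values were to be given for every Hox gene with a mean of at least 1 FPKM in a group and for every shared locus, and for at most 4 genes of a regulator list and comparison, taken by the largest change. Since long annotated spans leave many genes without a locus that covers 50% of them, the locus on the gene's strand or without a strand that holds most coding bases was used to represent a gene, which was decided after seeing the data. Alternatives were another pseudocount (0.1), other filters (none, or a mean of 5 FPKM), quantile and median-ratio scaling, no trend, all 9 libraries in the fit, a replicate block, 80% overlap, 1 locus per gene and each library left out. Strand-assigned loci only, 1 coding locus per gene, and the counts without the Hoxb9 interval and the Hoxb sum without the Hoxb13 piece were added after seeing the data.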

Additional observations from a re-analysis of the deposited data

How the results depend on the processing

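Of 11 Hox loci called lower in SSCiPSC than in SSC, 2 were left (of 2 tested) with a mean of at least 5 FPKM, 4 (of 4) with 1 locus per Hox gene, 6 (of 6) with strand-assigned loci only and 6 (of 6) with 1 coding locus per gene, since fewer loci were tested. For fiPSC against SSC the 10 calls became 2, 4, 6 and 5 (of 6) under the same settings. With a mean of at least 5 FPKM, 58.7% of all loci tested were called in SSCiPSC and 61% in fiPSC. Leaving out each library in turn gave 9 to 15 calls of 19 to 23 loci tested for SSCiPSC, where 35.6% to 50.6% of all loci were called, 10 to 14 of 17 to 22 for fiPSC, where 36.7% to 54.6% were called, and 0 of 8 to 9 between fiPSC and SSCiPSC. Without a filter on low values both counts were 15, with 1 higher in fiPSC, the Hoxd13 piece, where 37.7% and 40.6% of all loci were called. Without the Hoxb9 interval the 9 and 8 loci called were those that had passed the filter through SSC alone, and no locus was left to test between fiPSC and SSCiPSC. The loci called kept their direction in every fit in which they were tested, and those that lost their call in some fit were Hoxb13 and Hoxd9, as given above. The size of the differences depended on the pseudocount. With 0.1, that of Hoxd8 in SSCiPSC went from -2.63 to -5.17 and that of Hoxb13 from -1.02 to -2.20. The Hoxb9 coding locus moved less, from -1.465 to -1.558. Some loci that were not called changed sign, all of them of the Hoxb9 interval, such as 1 that ran from -0.62 to 0.73 in SSCiPSC against SSC, and the Hoxb9 coding locus between fiPSC and SSCiPSC (-0.05 to 0.17). Without the Hoxb13 piece the mean Hoxb sum of fiPSC exceeded that of SSCiPSC by 0.317 and not 0.814 FPKM.

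Same-numbered libraries did not deviate together (correlations from -0.236 to 0.0214), so the numbers do not pair the samples. With the number as a replicate block the counts were 12 (11 lower and 1 higher, a locus of the Hoxb9 interval), 10 and 0. In these fits 46.3%, 46.2% and 0.0177% of all loci tested were called.

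Depth limits these values. Hox calls such as those of the Hoxd10 piece and the Hoxb13 piece rest on fewer than 10 fragments in SSC. A locus at 0 in SSC can be above 0 in iPSC from depth alone. Values of the Hoxb9 interval cannot be divided between its genes, and no level can be given for 12 of the 39 genes.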

Other observations

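Of 11 listed genes that mark the exit from pluripotency, 9 had a locus and 5 were tested, and 2 rose and 3 fell in SSCiPSC, while 1 rose, 2 fell and 2 were not called in fiPSC, where 50.3% and 51.8% of all loci tested were called. Otx2, a regulator of the epiblast and forebrain, was at 0.558, 0 and 0 FPKM in SSC, 24.5, 21.3 and 17.3 FPKM in SSCiPSC and 34.2, 24.6 and 38.6 FPKM in fiPSC. Gata6, a regulator of endoderm that testis somatic cells also express, was at 7.26, 4.92 and 8.08 FPKM in SSC and at most 0.525 FPKM in iPSC. T, which marks the primitive streak, was at 1.63, 1.89 and 1.69 FPKM in SSC and at most 1.04 FPKM in iPSC. Of the ParaHox genes, sisters of the Hox clusters, Pdx1 had a locus, which was looked at after its values were seen and did not exceed 0.554 FPKM in any library. The Cdx genes, which activate posterior Hox genes in the embryo, named here after their values were seen, were low, and Cdx1 reached its highest value, 4.76 FPKM, in SSCiPSC replicate 2.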
